A study of Mus musculus with 72 samples.

Results

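The genes described here are the centrosome and cilium genes named Cep, Ift and Bbs followed by a number. They were taken as the protein-coding genes with such a symbol and a mean of 400 or more sequenced T positions per whole-cell library. 57 of 58 matching genes met this limit, out of 51826 genes in the count tables, with 35 Cep, 14 Ift and 8 Bbs genes. Cep295nl lay outside with a mean T count of 205, and Cep97 lay nearest inside with 1067.

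The cells were of E14TG2a, an established mouse embryonic stem cell line, grown with 2i inhibitors and LIF, and were given 4-thiouridine (4sU), a uridine analog that enters new RNA and is read as T-to-C (T2C) conversions. Each culture was sampled as whole cells and, by biochemical fractionation, as cytosol, membrane and nucleus, with cycloheximide in the buffers, followed by poly(A)-selected sequencing. Labeling lasted 15, 20 or 30 min in the first pair of replicates (1 and 2). It lasted 20, 40 or 60 min in replicates 3 and 4. Replicates 5 and 6 were labeled during 60 or 120 min, which brings the total to 64 libraries. The labels state 500 µM 4sU up to 40 min and 100 µM at 60 and 120 min for all replicates. The study's methods also give 500 µM at 60 min for some replicates, which they do not name by number. The deposited conversion rate at 60 min was 5.83% to 8.29% in replicates 3 and 4 and 2.38% to 3.99% in replicates 5 and 6, so dose and replicate pair cannot be told apart at this time.

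The libraries held 15.4e6 to 53.0e6 reads on genes. All 8 stem cell markers exceeded 1 TPM (a level scaled to gene length and library size), while 1 of 5 fibroblast, 1 of 5 endoderm and 1 of 3 mesoderm markers did. Of 6 multiciliated cell markers 3 exceeded 1 TPM, with a summed level of 11.3 to 23.5 TPM, while Mcidas and Dnah5 were near 0, at 0.018 and 0.024 TPM. The 6 membrane markers were higher in the membrane than in the cytosol, with a median log2 fold change of 4.41, and also in the nucleus, with a median of 1.83. The part of membrane RNA in nuclear values was not tested. The whole-cell library of replicate 6 held a median share over members of 0.419 at 60 min and 0.153 at 120 min, which goes against the order of its labels, so whole-cell shares are used in no comparison.

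The centrosome is built from a pair of centrioles and surrounding material, and the older centriole can become the basal body of a primary cilium. Many CEP proteins are parts of centrioles, their appendages or the transition zone at the cilium's base. IFT proteins form the IFT-A and IFT-B trains that motors carry along the cilium, and BBS proteins form the BBSome, an adaptor for membrane proteins that rides on these trains, or, as BBS10 and BBS12 do, a chaperonin-like group that helps to assemble it.

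RFX factors, known regulators of ciliary genes, bind the X-box, a pair of inverted half-sites. The letters GTNNCCNNGGNNAC, which read the same on both strands, were searched in the 250 bases before each RefSeq gene start (GRCm38.p6). They occurred for 6 of the 49 members with a promoter entry, against 1.81% of all 27025 symbols, as a description. The windows below show the matches of an IFT-B gene, a BBSome gene and a centrosomal gene, with the match in capitals and each window written 5′ to 3′ on the gene's strand.
Ift57, chr16:49699187-49699240, plus strand: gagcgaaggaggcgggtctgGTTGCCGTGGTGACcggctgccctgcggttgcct
Bbs7, chr3:36613477-36613530, minus strand: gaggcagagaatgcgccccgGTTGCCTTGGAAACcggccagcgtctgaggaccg
Cep112, chr11:108425162-108425215, plus strand: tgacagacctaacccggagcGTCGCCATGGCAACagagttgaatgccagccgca
The matches began 87, 121 and 84 bases before the RefSeq starts. The GENCODE starts used elsewhere here lie closer to these matches, and that of Cep112 falls within its match.

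In whole cells, levels per length spanned more than 2 orders on the log10 scale. Cep55, an abscission protein that acts at the midbody in dividing cells, was highest with 192 ± 38.2 TPM (SD, n = 6), followed by Cep57 with 54.3 ± 8.67 TPM. Cep85l was lowest among the Cep genes with 0.720 ± 0.130 TPM. Among Ift genes, Ift52, an IFT-B core subunit, was highest with 45.8 ± 8.09 TPM and Ift122, an IFT-A subunit, lowest with 2.24 ± 0.763 TPM. Among Bbs genes, the levels ran from 13.0 ± 2.46 TPM for Bbs2 to 2.78 ± 0.653 TPM for Bbs7, both BBSome subunits.

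The first comparison set the nucleus against the cytosol, from read counts summed over times per replicate and scaled within each fraction. The values are levels relative to the other mRNAs of a fraction. The study estimated that the nucleus and the membrane each hold more mRNA than the cytosol, so lower here does not mean less mRNA per cell. On this relative scale most Ift mRNAs were lower in the nucleus than in the cytosol, whereas Cep mRNAs went in both directions. 10 of 14 Ift genes were lower and 1 was higher, with a median log2 fold change of -0.87. Among 35 Cep genes 8 were higher and 4 lower, with a median of -0.03, and among 8 Bbs genes 2 were higher and 1 lower, with a median of 0.19. Over all 19040 genes tested, 30.9% were called higher and 28.1% lower, with a median of -0.01 (edgeR quasi-likelihood test, Benjamini-Hochberg adjusted p under 0.05 and a log2 change over 0.5). The scaling moved the median of all genes to 0.15 with DESeq2 and to 0.35 by library size, and the share of calls that were higher from 52.4% to 60.5% and 71.6%. Relative to that median, the Ift median was -0.86, -0.87 and -0.86 under the 3 scalings. With DESeq2 8 Ift genes were lower, and 7 were lower under all 3, namely Ift20, Ift22, Ift27, Ift43, Ift46, Ift57 and Ift74. The Cep counts moved to 9 higher and 1 lower with DESeq2 and to 16 higher and 1 lower by library size. The percentages of all genes called higher or lower with DESeq2 and by library size are not given. The moved counts, of Ift genes too, are therefore not shown to be particular to the members. The same 8 Cep genes were higher under all 3 scalings, and Cep19 was the 1 Cep gene lower under all 3.

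**Figure D1:**
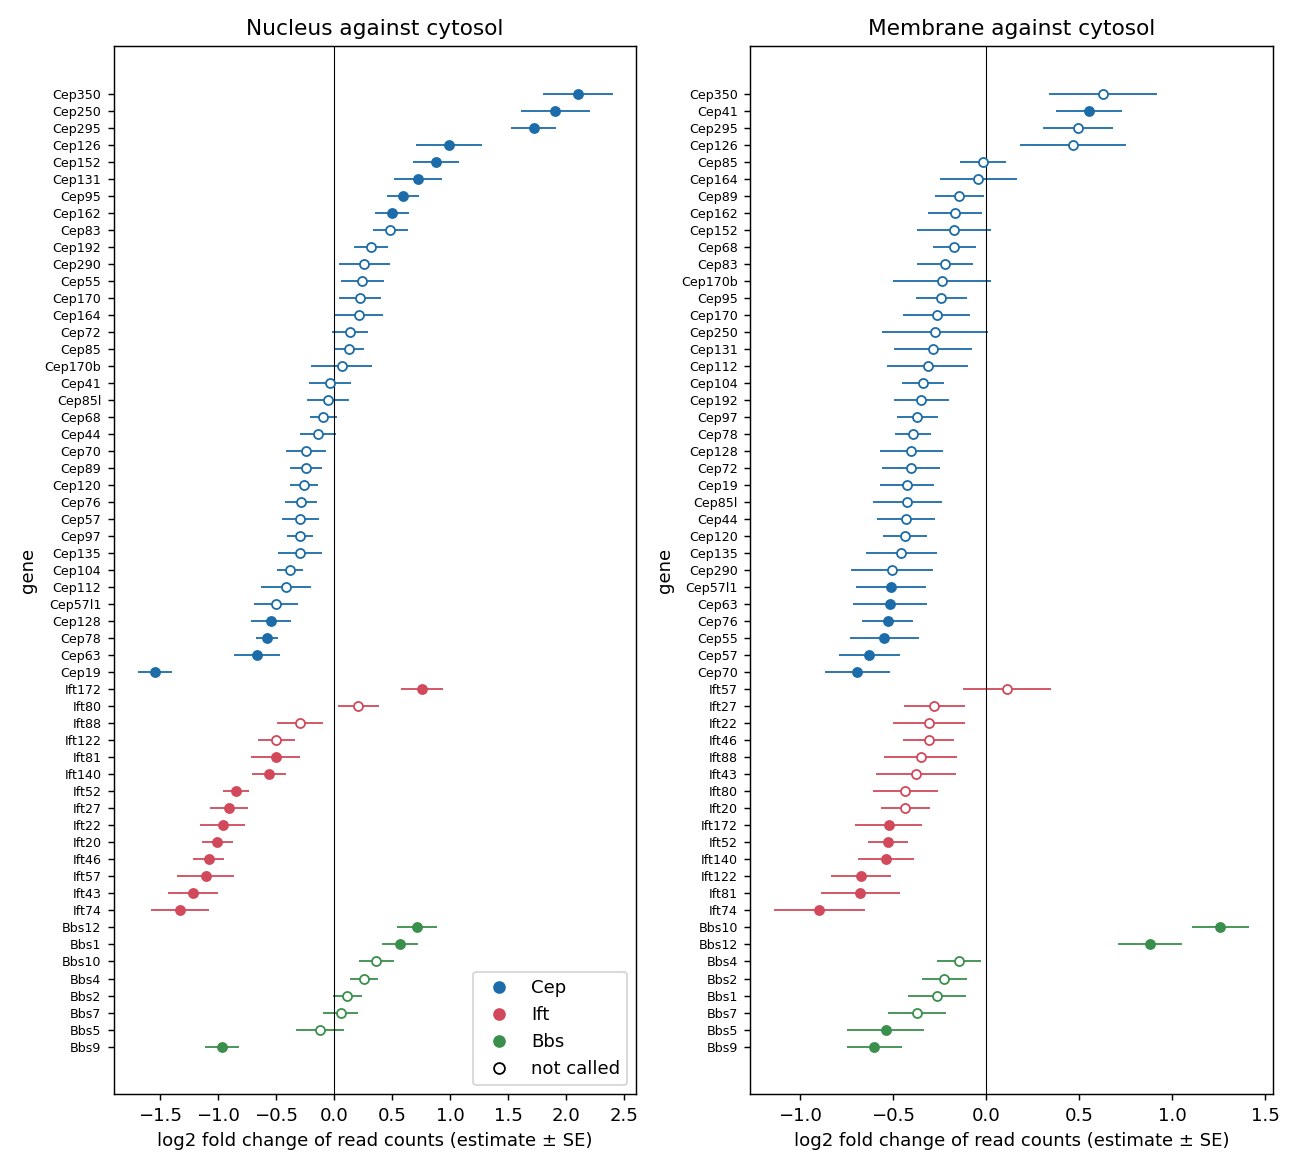
Log2 fold change of read counts for each of the 57 genes, nucleus against cytosol on the left and membrane against cytosol on the right, as the edgeR estimate ± SE over 6 replicates per fraction. Filled points passed the test, open points did not; the Ift genes, in red, lie mostly left of 0 in the nucleus, where 10 of 14 were lower, 7 of them under all 3 scalings.

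Ift74, an IFT-B subunit that binds tubulin with IFT81, was at 23.6, 19.2, 18.1, 17.4, 18.3 and 19.8 CPM (reads scaled to library size, with TMM factors) in the nuclei of replicates 1 to 6 and at 31.8, 29.6, 87.2, 67.9, 39.5 and 35.6 CPM in the cytosol. The fractions did not overlap, and the cytosol of replicates 3 and 4 stood highest. Its log2 fold change was -1.32 ± 0.25 (SE; edgeR adjusted p = 5.6e-05). The Ift74 gene shares 13492 bases with Lrrc19 on the other strand. Ift43, an IFT-A subunit, fell by 1.21 ± 0.22 on the log2 scale (edgeR adjusted p = 3.5e-05), with nuclear values of 4.21 to 6.05 CPM and cytosolic values of 8.85 to 22.7 CPM. Ift172, the largest IFT-B subunit, moved the other way, with 31.5, 31.9, 52.1, 57.1, 29.9 and 33.0 CPM in the nucleus and 21.3, 23.9, 14.8, 21.3, 28.7 and 29.0 CPM in the cytosol, and a log2 fold change of 0.76 ± 0.18 (edgeR adjusted p = 0.00074). The fractions of Ift172 came close to each other in replicates 5 and 6. Ift80 was not called, at 0.21 ± 0.18.

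Cep350, a large protein that anchors microtubules at the centrosome, was at 61.2, 74.3, 74.2, 61.5, 46.3 and 49.4 CPM in the nucleus and at 20.7, 21.6, 9.19, 11.3, 10.4 and 12.3 CPM in the cytosol. Every nuclear value lay above every cytosolic value, with a log2 fold change of 2.10 ± 0.30 (edgeR adjusted p = 2e-06). The Cep350 gene shares 14628 bases with Gm37571 on the other strand and 745 bases with Gm37383 on the same strand. Many other members overlap annotated genes too, and not all overlaps are given here. Cep250, a linker protein between the centrioles, rose by 1.91 ± 0.29 (edgeR adjusted p = 5.3e-06), from 10.5 to 40.4 CPM in the cytosol to 46.3 to 151 CPM in the nucleus, and its gene shares 25622 bases with 6430550D23Rik on the other strand. Cep19, a ciliogenesis protein of the older centriole, had the lowest value of all members, with 7.05 to 10.8 CPM in the nucleus against 22.0 to 39.4 CPM in the cytosol and a log2 fold change of -1.54 ± 0.15 (edgeR adjusted p = 6.9e-09). Cep63 was lower by less, at -0.66 ± 0.20 (edgeR adjusted p = 0.0061), and was not called with DESeq2 or by library size. Across the 57 genes the nuclear log2 fold change had a Spearman correlation of 0.37 with exon length and 0.01 with gene span, as a description over genes that share libraries.

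**Figure D2:**
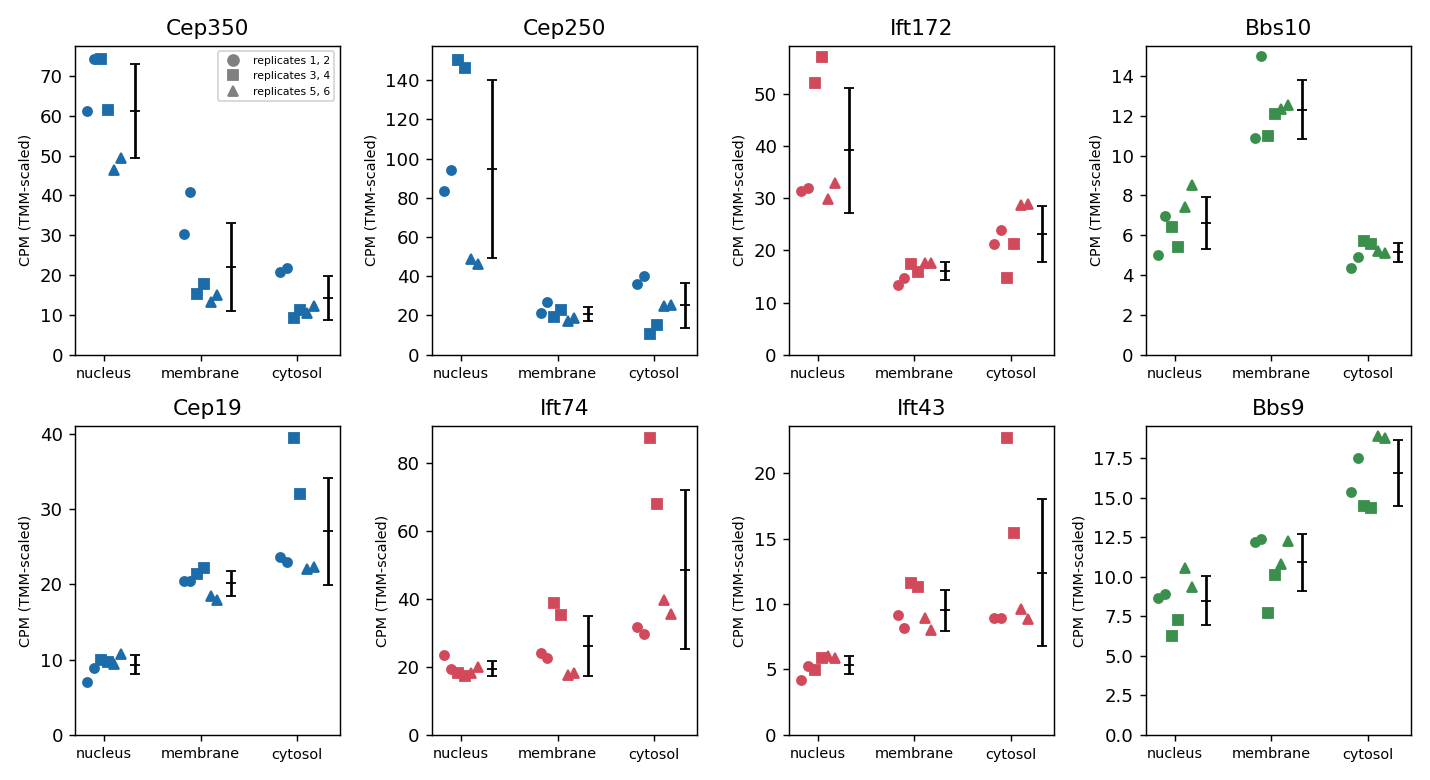
Read counts of 8 genes per replicate in CPM scaled by TMM factors, for nucleus, membrane and cytosol, with the symbol showing the replicate pair and the black bar the mean ± SD of 6 replicates. Cep350 lies highest in the nucleus, Bbs10 in the membrane, and Cep19, Ift74, Ift43 and Bbs9 in the cytosol.

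Among the Bbs genes, Bbs12 was higher in the nucleus, at 0.72 ± 0.17 (edgeR adjusted p = 0.00081). Its gene shares 8900 bases with Gm43439 on the same strand and 155 bases with Cetn4 on the other. Bbs1 was higher as well, at 0.57 ± 0.16 (edgeR adjusted p = 0.003). Bbs9, a BBSome subunit in one of the longest genes here, was lower at -0.96 ± 0.15 (edgeR adjusted p = 5.5e-06), with 6.27 to 10.5 CPM in the nucleus and 14.3 to 18.9 CPM in the cytosol. Bbs5 was not called, at -0.12 ± 0.21. Of the genes with other names that belong to this group, the BBSome subunits Ttc8 and Bbip1 were lower in the nucleus, at -0.62 and -1.09. Mkks, of the chaperonin-like group, was lower at -1.52, and so was Arl6, a GTPase that recruits the BBSome to membranes, at -1.60. Of the IFT genes with other names, 2 of 6 IFT-B and 2 of 3 IFT-A genes were lower and 0 higher. Among the other lists, 1 of 9 IFT motor genes was higher in the nucleus and 3 lower, 1 of 12 centriole assembly genes higher and 6 lower, 2 of 6 appendage genes higher and 0 lower, and 3 of 10 pericentriolar material genes higher and 1 lower. Of the 5 genes in the satellite list, 0 were higher and 1 lower. That list held Pcm1, Ofd1, Ssx2ip, the member Bbs4 and Azi2, whose place among satellite genes was not checked. Of 15 transition zone genes 7 were higher and 4 lower, and of 7 regulators 3 were higher and 1 lower.

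The second comparison set the membrane fraction, in which endoplasmic reticulum and mitochondria are collected, against the cytosol. Relative to the other mRNAs of each fraction, 14 of 57 members were lower in the membrane and 3 higher, against 8.87% lower and 21.1% higher over all genes tested. The median of all genes was -0.14, and amounts per cell were not compared. This median was -0.20 with DESeq2 and -0.45 by library size, under which 42 members were lower, and the share of all calls that were higher was 70.4%, 60.3% and 35.3% in turn. The percentage of all genes called lower by library size is not given, so the 42 is not shown to be particular to the members. The 3 higher genes were Bbs10, Bbs12 and Cep41, of which Cep41 was not called under all scalings. Bbs10 rose by 1.26 ± 0.15 (edgeR adjusted p = 1.6e-07), with 10.9, 15.0, 11, 12.1, 12.4 and 12.5 CPM in the membrane and 4.37, 4.92, 5.73, 5.56, 5.18 and 5.10 CPM in the cytosol. The fractions did not overlap. Bbs12 rose by 0.88 ± 0.17 (edgeR adjusted p = 0.00017). Among the members called lower were Ift74 at -0.90 ± 0.24 (edgeR adjusted p = 0.0049), Cep70 at -0.69 ± 0.18 (edgeR adjusted p = 0.0027), Ift81 at -0.68 ± 0.21 (edgeR adjusted p = 0.013) and Bbs9 at -0.60 ± 0.15 (edgeR adjusted p = 0.0021). By contrast, 6 of 15 transition zone genes were higher in the membrane and 3 lower, the 6 encoding membrane or secreted proteins, among them Tctn3 at 3.40 and Tmem67 at 2.93.

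The remaining comparisons used the labeled share, that is the T2C count divided by the T count and by the library's conversion rate, which would be 1 where all RNA was new. Exon shares of Ift genes stayed below those of Cep genes in 16 of 16 nuclear and 15 of 16 cytosolic libraries, by the median over members with a T count of 400 or more. They were also below the median of all genes in all 16 nuclear and all 16 cytosolic libraries. Cep genes were below it in 12 nuclear and 13 cytosolic libraries, and Bbs genes in 6 and 9. At 15 min in the cytosol the means of these medians were 0.0112 for Ift and 0.0117 for Cep. No sequencing error was subtracted, so the earliest cytosolic libraries say little about the order. At 60 min in the nucleus the median was 0.152 ± 0.034 (SD, n = 4 libraries) for Ift, 0.245 ± 0.033 for Cep and 0.319 ± 0.027 for Bbs, against 0.246 ± 0.037 over all genes. At 120 min in the cytosol it was 0.168 ± 0.013 (SD, n = 2 libraries) for Ift, 0.444 ± 0.019 for Cep and 0.471 ± 0.015 for Bbs, against 0.385 ± 0.0005 over all genes. In nuclear introns the medians were 0.232 ± 0.062 (SD, n = 4 libraries) for Ift, 0.254 ± 0.074 for Cep and 0.185 ± 0.044 for Bbs at 20 min, and 0.773 ± 0.074, 0.809 ± 0.066 and 0.770 ± 0.099 at 60 min. Over all genes the intron medians were higher, at 0.304 ± 0.083 at 20 min and 0.862 ± 0.067 at 60 min. The family medians describe the members and were not tested.

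**Figure D3:**
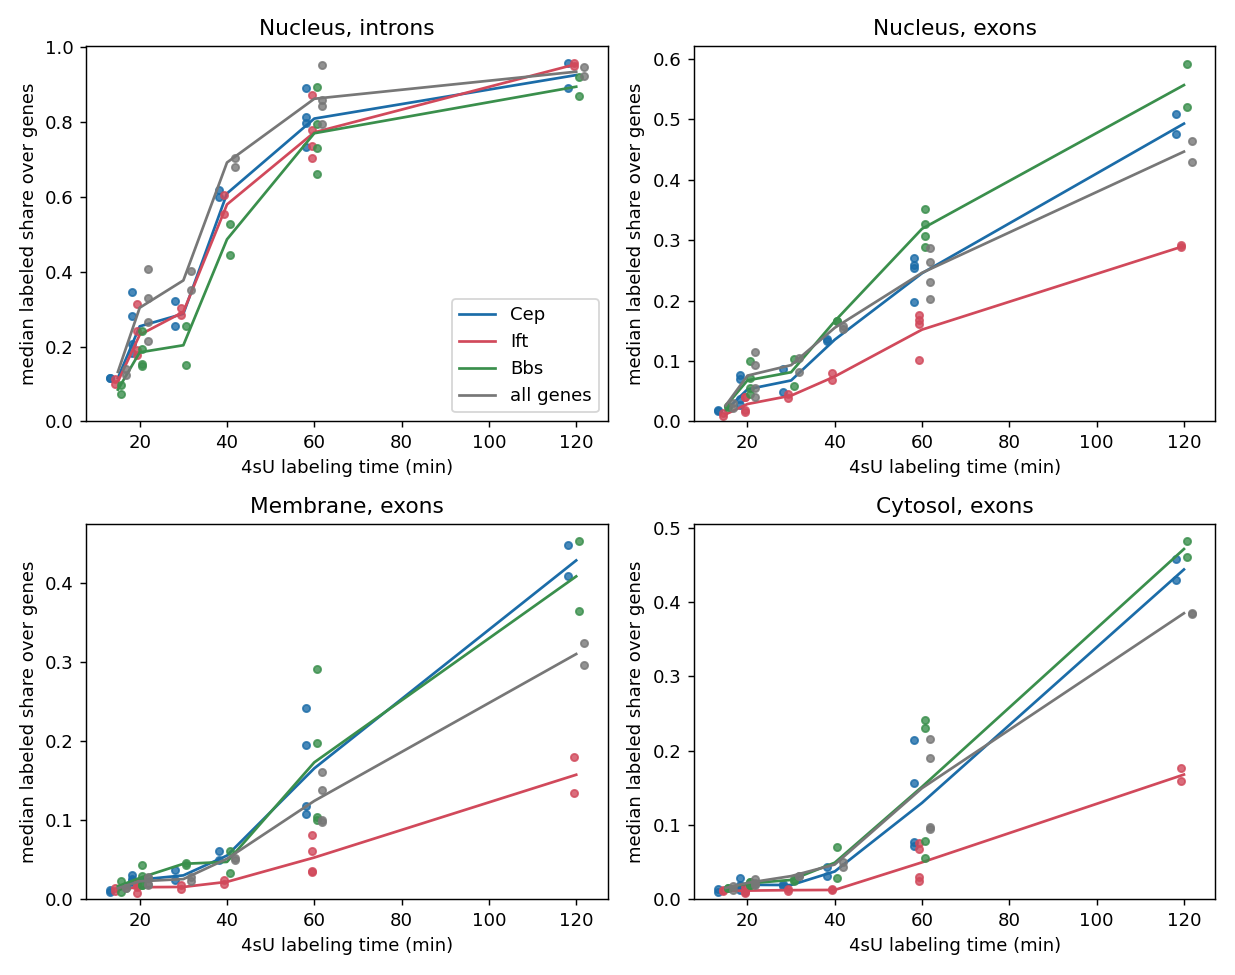
Median labeled share over genes against labeling time in min, for nuclear introns and for exons in the nucleus, membrane and cytosol. Points are libraries, lines join their means, and the Ift exons, in red, lie lowest from 40 min on in each fraction, reaching 0.168 in the cytosol at 120 min.

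Individual genes spanned the whole range. At 120 min in the cytosol, Bbs12 and Bbs10 reached 1.06 ± 0.10 and 0.985 ± 0.038 (SD, n = 2), Cep170 0.916 ± 0.014, Cep152 0.898 ± 0.007 and Cep55 0.862 ± 0.014. At the other end stood Bbs9 with 0.057 ± 0.009, Ift22 with 0.087 ± 0.026, Ift27 with 0.088 ± 0.032 and Ift43 with 0.096 ± 0.052. A share above 1 shows the error of the estimate.

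At 20 min, new exon sequence was more frequent in the nucleus than in the cytosol for 22 of 57 members and less frequent for 0 with edgeR, at an unadjusted p under 0.05 and with limma too, against 46.9% and 0.299% over all 14723 genes tested. Called were 16 Cep genes, 5 Ift genes and 1 Bbs gene, Bbs4. In the comparisons of shares, no ratio is given here for a gene whose libraries held a median of fewer than 10 T2C counts on either side. The closing account of sign changes does give ratios for such genes. Cep57l1 was called, with shares of 0.037, 0.014, 0.122 and 0.105 in the nuclei of replicates 1 to 4 and 0.012, 0.007, 0.005 and 0.010 in the cytosol, the latter on 3 to 7 T2C counts per library. Ift80 was at 0.059, 0.113, 0.165 and 0.117 in the nucleus and at 0.014, 0.036, 0.050 and 0.007 in the cytosol, on 4 to 29 cytosolic T2C counts, a log2 ratio of 2.07 ± 0.54 (edgeR adjusted p = 0.0006). Cep97, Cep112 and Ift22 held 0 to 5 T2C counts per library in both fractions.

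At 60 min the nuclear share was higher for 26 members with edgeR, 12 with limma, and lower for 1. With edgeR 25.8% and 1.28% of all 14672 genes tested were called, and the percentages under limma are not given. By family, 10 of 14 Ift, 12 of 35 Cep and 4 of 8 Bbs genes were higher with edgeR, and 6, 4 and 2 with limma. The count depended on the replicate pair: it was 40 within replicates 3 and 4 and 17 within replicates 5 and 6, with a median log2 ratio over members of 1.77 and 0.52, while the median of all genes moved from 1.19 to 0.22. Without replicate 3 the count was 10 and without replicate 4 it was 15. The share of all genes called in these subsets is not given, so the changes are not shown to be particular to the members. Cep350 alone was lower, with nuclear shares of 0.211, 0.164, 0.247 and 0.269 in replicates 3 to 6 and cytosolic shares of 0.311, 0.535, 0.794 and 0.726. Every cytosolic value lay above every nuclear one, and the log2 ratio was -1.41 ± 0.37 (edgeR adjusted p = 0.0034). The fractions of Bbs10 and Bbs12 overlapped, with log2 ratios of -0.06 ± 0.37 and -0.02 ± 0.37, with shares of 0.479 to 0.925 in both fractions. Bbs7 showed 0.274, 0.097, 0.260 and 0.137 in the nucleus against 0.004, 0.038, 0.041 and 0.116 in the cytosol, on 1, 13, 4 and 13 cytosolic T2C counts. Cep131, a satellite protein, was at 0.098, 0.079, 0.124 and 0.070 in the nucleus, and its cytosolic libraries held 0 to 3 T2C counts. Ift22, Ift43 and Bbs9 were called as well, on 0 to 8 cytosolic T2C counts per library. Cep295 was at -0.53 ± 0.35, Ift57 at 0.77 ± 0.55 and Ift27 at 0.95 ± 0.69, none of which was called. Cep41, a centrosomal protein involved in tubulin modification of the cilium, was at 1.82 ± 0.55 (edgeR adjusted p = 0.01), on 4 to 20 cytosolic T2C counts.

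**Figure D4:**
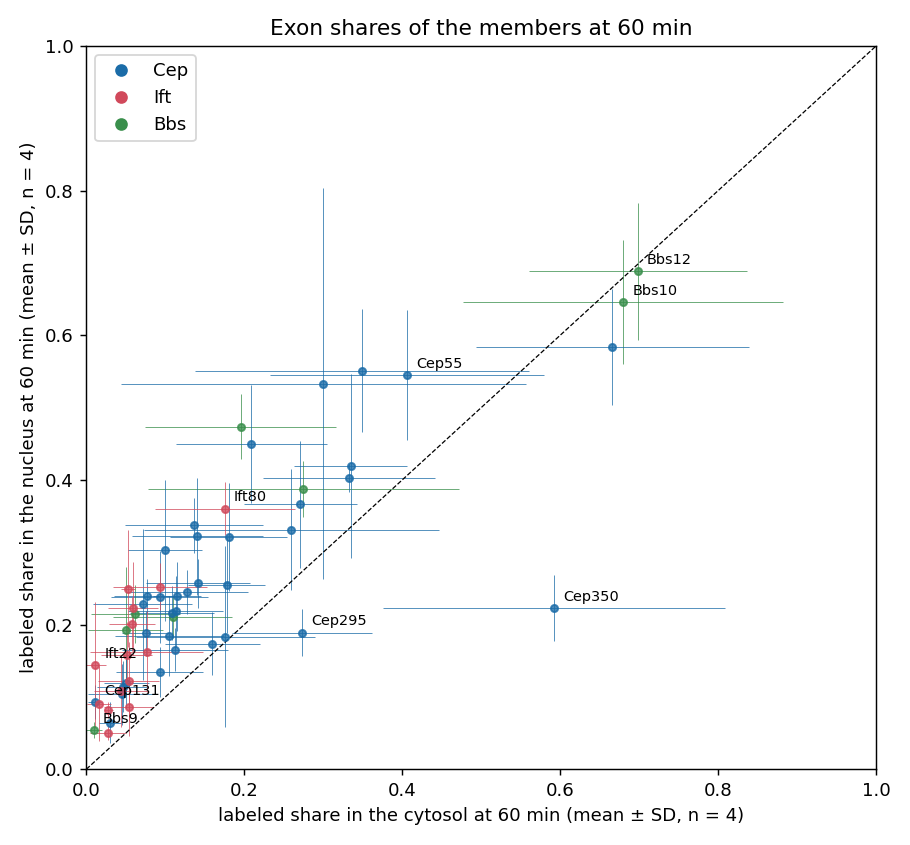
Labeled exon share at 60 min in the nucleus against the cytosol, 1 point per gene with the mean ± SD of 4 replicates, and a dashed line of equal shares. Most genes lie above the line; Cep350 lies far below it, and Bbs10 and Bbs12 lie near it at high shares.

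No member passed the test between membrane and cytosol at 60 min, where 0.0139% of 14435 genes were higher and 5.34% lower. The count was 0 in both directions also at an unadjusted p under 0.05, with edgeR and with limma. These fits left fractions of the same culture unpaired and pooled both replicate pairs, so the 0 does not show equal shares. Bbs4 was at a log2 ratio of 0.38 ± 0.45. With the replicate number as a block 1 member was higher.

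In the nucleus at 20 min, introns, which stand for pre-mRNA, were more labeled than exons for 51 of 56 members tested, against 80.8% of 12668 genes, and less labeled for 0, against 0.142%, with a median log2 ratio of 2.47 against 2.02. By family, 33 of 35 Cep, 13 of 14 Ift and 5 of 7 Bbs genes were called, and Bbs10, annotated with 1 exon, was not tested. Bbs9 had intron shares of 0.370, 0.490, 0.568 and 0.522 in replicates 1 to 4 and was called, with 3 to 29 T2C counts in its exons. At 60 min its introns were at 0.879 to 1.00 while its exons were at 0.044 to 0.068. Cep290, a transition zone protein, had a log2 ratio of 3.55 ± 0.56, on 4 to 40 T2C counts in its exons. At the low end, Cep55 was at 0.76 ± 0.34 (edgeR adjusted p = 0.033) and Bbs12 at -0.20 ± 0.52, which was not called. Intron T positions per exon T position had a median over Ift genes of 1.03 ± 0.30 (SD, n = 6) in the nucleus against 0.15 ± 0.06 in the cytosol, and of 0.60 ± 0.18 against 0.16 ± 0.06 over Cep genes. Cep350 was at 0.132 in the nucleus and 0.169 in the cytosol.

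Labeled shares were also compared by the position of exons in the gene. Exons in the last 10% of the gene, at the 3′ end, were compared with those in the first 33.3% where both held 100 or more T positions. At this limit a part can hold few or no T2C counts. The study describes a fall in nuclear labeled share away from the 3′ end for exons in general. No value over all genes was computed here, so the order is not shown to be particular to the members. At 40 min in the nucleus the 3′ exons had the higher share in 20 of 24 and 24 of 25 members over 50 kb in replicates 3 and 4, and in 25 of 26 and 22 of 26 members up to 50 kb. The medians over the long genes were 0.188 and 0.155 near the 3′ end and 0.029 and 0.010 in the first part. At 120 min they were 0.443 and 0.485 against 0.341 and 0.293. Ift80, chosen after its values were seen, had 0.407 and 0.202 near the 3′ end and 0 and 0.033 in the first part at 40 min, on 0 and 3 T2C counts. Cep128, at 386 kb the third longest gene, had 0.089 and 0.100 against 0 and 0.019 at 40 min, and 0.346 and 0.252 against 0.099 and 0.057 at 120 min. Bbs9, at 413 kb, had 0.192 and 0.370 against 0.051 and 0.093 at 40 min. Cep112, the longest at 435 kb (chr11:108425192-108860615, plus strand), held 0 T2C counts near its 3′ end in both libraries at 40 min, on 432 and 535 T positions. At 120 min these exons held 6 and 41 T2C counts, with shares of 0.139 and 0.744. The shortest genes were Bbs10 with 3.05 kb in 1 exon, Ift20 with 5.38 kb and Ift22 with 7.25 kb.

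**Figure D5:**
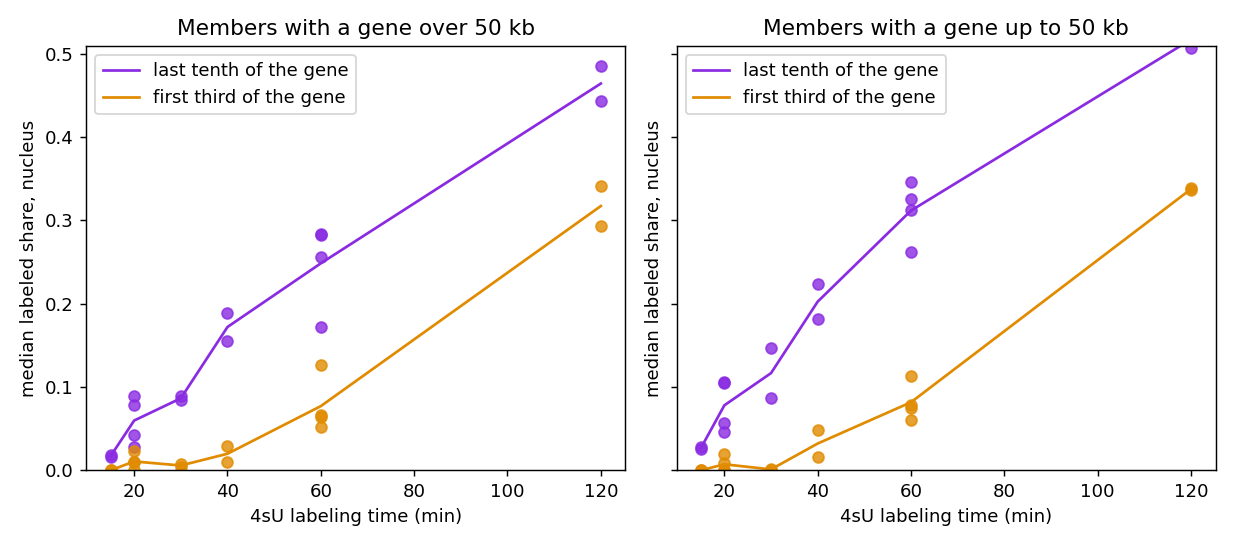
Median labeled share in the nucleus against labeling time in min for exons in the last 10% and in the first 33.3% of the gene, for members over 50 kb and up to 50 kb. Points are libraries and lines join their means; the 3′ exons lie higher in both sets, with means over libraries above those of the first part at every time.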

How the data were processed

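Poly(A)-selected, strand-specific libraries of 4 fractions were used. Per the labels and the study's methods, the authors aligned reads with STAR 2.7.6 to mm10 and counted reads per gene with HTSeq 0.11.1. The deposited files give whole read counts per gene and, for exons and introns, T and T2C counts, the conversion rate as a fraction, and the ratio of T2C to T counts. The HTSeq strand setting is not given in the sources used here. Symbols and gene coordinates came from GENCODE M21 (GRCm38), whereas the authors used an earlier GENCODE release of the same build. Promoter windows were set from RefSeq starts.

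Of 72 libraries, 64 were analysed. The 120 min libraries of replicates 3 and 4 were left out, as in the study. Counts were summed per replicate and fraction and tested with edgeR 4.0.16 (quasi-likelihood, TMM factors, filterByExpr). Shares were tested with the same tool on T2C counts, with T counts times the conversion rate as offset, for genes with a mean T count of 400 or more. SEs came from the F statistic. The replicates were independently passaged. limma 3.58.1 and DESeq2 1.42.0 served as alternatives.

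Fractions with the same replicate number came from the same culture. Deviations from the fraction mean correlated at 0.10 to 0.56 between nucleus and cytosol and 0.75 to 0.82 between membrane and cytosol. No 2 libraries of a group agreed within sampling noise. The scripts were tested on simulated data. Estimates had little bias at 10 or more counts and more below that, and many known differences in shares went uncalled at the real spread, so a gene not called is not shown to be equal. The pass criteria of that test were revised after its first output was seen.

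Named genes were the 2 highest and 2 lowest members of each family per comparison, the 3 longest and shortest genes, and the extreme levels per length. Members and lists were chosen with earlier results of these data known.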

Additional observations from a re-analysis of the deposited data

Results flagged for a closer look

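Groups of 4 or 6 libraries were looked at for the named genes in 144 checks. A group used in more than 1 comparison counts more than once among these. In 13 distinct groups 1 library lay far from the others by Dixon's test, where chance gives about 1 in 20 per check. Bbs1 in the nucleus exon 20 min stood apart in replicate 1, with a labeled share of 0.0598 against a group median of 0.0878. Bbs4 in the nucleus exon 20 min stood apart in replicate 1, with a labeled share of 0.050 against a group median of 0.114. Bbs7 in the cytosol exon 20 min stood apart in replicate 1, with a labeled share of 0.0265 against a group median of 0.00917. Bbs7 in the nucleus intron 20 min stood apart in replicate 3, with a labeled share of 0.431 against a group median of 0.19. Bbs9 in the nucleus exon 20 min stood apart in replicate 4, with a labeled share of 0.0557 against a group median of 0.0218. Cep112 in the membrane exon 60 min stood apart in replicate 5, with a labeled share of 0.307 against a group median of 0.0544. Cep112 in the nucleus exon 20 min stood apart in replicate 2, with a labeled share of 0.0264 against a group median of 0. Cep41 in the cytosol stood apart in replicate 3, with a CPM of 11.7 against a group median of 7.5. Ift122 in the membrane exon 60 min stood apart in replicate 6, with a labeled share of 0.201 against a group median of 0.0575. Ift22 in the nucleus exon 20 min stood apart in replicate 4, with a labeled share of 0.0201 against a group median of 0. Ift43 in the cytosol exon 60 min stood apart in replicate 6, with a labeled share of 0.0384 against a group median of 0.0104. Ift74 in the nucleus exon 20 min stood apart in replicate 3, with a labeled share of 0.167 against a group median of 0.0347. Ift81 in the membrane exon 60 min stood apart in replicate 6, with a labeled share of 0.11 against a group median of 0.0362.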

How the results depend on the processing

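Counts of members called depended on the processing as follows. For nucleus against cytosol, 22 members were higher and 9 lower by library size alone, with no filter on low counts, and with every library as a sample, where the reported counts are 11 and 15; within replicates 5 and 6, 7 were lower. For membrane against cytosol, reported as 3 higher and 14 lower, 42 were lower by library size alone and 5 with no filter; 5 were higher with every library as a sample, 6 within replicates 1 and 2 and 6 within replicates 3 and 4, and 4 were lower within replicates 1 and 2. For the shares at 20 min, 13 were higher within replicates 1 and 2 where 22 are reported. For nucleus against cytosol at 60 min, reported as 26 higher and 1 lower, 12 were higher with limma, 40 within replicates 3 and 4 and 17 within replicates 5 and 6, where 2 were lower. For membrane against cytosol at 60 min, reported as 0 and 0, 2 were higher within replicates 3 and 4 and 1 lower within replicates 5 and 6. Pairing the fractions by a replicate block gave 1 higher there, and 33 higher for nucleus against cytosol at 60 min, and moved no other count by over 1.5 times. The share of all genes called is not given for these settings or for those with 1 replicate left out. The changes are therefore not shown to be particular to the members, and their cause was not tested.

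Leaving out 1 replicate at a time gave 9 to 16 higher and 10 to 15 lower for nucleus against cytosol, where the lowest count of lower genes, 10, came without replicate 1, 2 or 5. For membrane against cytosol it gave 2 to 4 higher and 8 to 22 lower, with 22 without replicate 5 and 8 without replicate 2 or 6. For the shares it gave 16 to 22 higher at 20 min, 10 to 26 at 60 min with 10 without replicate 3, and 46 to 52 for introns.

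Of 839 values of named genes under an alternative, 715 kept direction and call, 66 lost the call, 14 gained one and 44 changed sign, none of them called before or after. For Bbs5 in nucleus against cytosol, the log2 value turned to 0.046 with DESeq2, 0.23 with every library, 0.30 by library size, 0.26 with no filter, 0.47 within replicates 1 and 2 and 0.32 within replicates 5 and 6. Ift57 in membrane against cytosol turned to -0.11 by library size. For membrane against cytosol at 60 min, with limma, the block and replicates 3 and 4 alone in turn, Bbs2 gave 0.028, 0.034 and 0.31, Bbs5 0.21, 0.24 and 0.94, and Ift81 0.061, 0.15 and 1.05. Ift122 gave -0.16 within replicates 3 and 4. At 20 min, within replicates 1 and 2, Bbs12 gave -0.13, Bbs7 -0.50, Cep112 0.11, Cep350 0.46 and Ift88 -0.11, and Bbs12 gave 0.15 for introns against exons. With limma Cep350 gave 0.040 and Ift22 0.18, and with the block Cep350 gave 0.055. At 60 min, Bbs10 gave 0.30 within replicates 3 and 4. Leaving out 1 replicate, log2 values crossed 0 for these genes. In introns against exons they ran for Bbs12 from -0.36 to 0.070. In membrane against cytosol at 60 min they ran for Bbs2 from -0.31 to 0.28, Bbs5 from -0.46 to 0.46, Ift122 from -0.11 to 1.48, Ift81 from -0.76 to 0.27. In nucleus against cytosol at 20 min they ran for Cep112 from -3.90 to 0.11, Cep350 from -0.24 to 0.48, Ift22 from -3.44 to 0.89, Ift88 from -0.51 to 1.06. In nucleus against cytosol at 60 min they ran for Bbs10 from -0.21 to 0.14, Bbs12 from -0.100 to 0.065. In membrane against cytosol read counts they ran for Ift57 from -0.0065 to 0.21. In nucleus against cytosol read counts they ran for Bbs5 from -0.16 to 0.097. At 20 min many members held under 10 T2C counts per library, which limits these values. Cep112 and Ift22 were among them, and their ratios at 20 min are not reliable.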
